A study of Bos taurus with 12 samples.

Results

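The cell cycle and DNA replication genes described here are 44 genes that were chosen by symbol from the gene-level read counts of bovine expanded blastocysts. All 44 were found among the 32637 genes of the count table, and 41 of them were among the 12802 genes with enough counts to be tested. They comprise cyclins and cyclin-dependent kinases (CDKs), their regulators, the proteins that load and fire replication origins, proteins of DNA synthesis, and proteins of mitosis and its checkpoint. All 44 are protein coding in the RefSeq annotation of ARS-UCD2.0, and they lie on 22 autosomes, with 0 on the X chromosome.

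Blastocysts (Bos taurus) were produced by in vitro fertilization of oocytes from slaughterhouse ovaries, cut evenly, and sexed by PCR on the first piece, while the second piece was kept for RNA-seq. A library was made from 2 such pieces of the same sex, without a separate RNA extraction, by poly(A)-based full-length cDNA synthesis (SMART-Seq HT PLUS), which gave 6 female and 5 male libraries. No treatment was applied, and sex was the only factor compared. The blastocysts were collected on successive days of culture, and semen of 2 bulls was used in weekly rotation. The labels used here give neither the day nor the bull of a library. Each piece held both the inner cell mass (ICM) and the trophectoderm (TE), so fewer cells of a type and less RNA per cell cannot be told apart.

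A dividing cell passes from growth through DNA synthesis to mitosis under the control of cyclins, which switch on their partner CDKs in turn. D and E cyclins bring cells towards DNA synthesis, origins are licensed by loading the MCM helicase and fire once, and B cyclins with CDK1 bring cells into mitosis, which ends when the anaphase-promoting complex (APC/C) has securin and B cyclins destroyed. Cells of the blastocyst divide quickly, with short growth phases, and many of these transcripts are also supplied by the oocyte before the embryo makes its own.

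The libraries held 6664112 to 16162985 counts in females, against 9942952 to 21392764 in males. XIST, the RNA of the inactive X chromosome, was at 52.2 to 260.3 CPM (counts scaled for library size) in female and 0.744 to 3.97 CPM in male libraries. The scaling used the library totals and the TMM factors of edgeR. Male replicate 5 was the deepest library and had the fewest detected genes (14937, against 16985 to 18550 in females and 16991 to 17436 in the other males). The fold change without it is given too for members whose values are listed in every male library, and for some others. Members given by means or ranges alone could move as well. Leaving it out moved the log2 fold change from 0.49 to 0.15 for CDC45 and from -0.39 to -0.74 for CDK6. That of WEE1 turned from -0.15 to 0.0003. A library is the replicate, so the p-values measure the spread between these pools. Levels given as mean ± SD are over n = 6 female and n = 5 male libraries.

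CDC20, which activates the APC/C at the end of mitosis, was the only member with a called sex difference and was 1.70-fold higher in males. Its gene lies on chromosome 3 (102655153 to 102659116, ARS-UCD2.0). In females, CDC20 was lowest at 82.7 CPM, had a median of 99.4 and was highest at 132 CPM. In male replicates 1 to 5, it was at 147, 191, 147, 146 and 272 CPM. Every male library was above every female library, and CDC20 was the only tested member of which this held, against 1.44% of all tested genes. No member had every female library above every male library, against 1.88% of all tested genes. The log2 fold change of males over females was 0.77 ± 0.18 (SE), with an adjusted p of 0.0723 from the quasi-likelihood test of edgeR (Benjamini-Hochberg, over all tested genes). A gene was called at an adjusted p under 0.1 and a fold change over 1.5, and 1.91% of all tested genes were called, 0.414% higher in males and 1.5% higher in females. Without male replicate 5, the log2 fold change was 0.61 and the adjusted p was 0.0792. The call was lost when any one of the other libraries except male replicate 4 was left out, with adjusted p-values up to 0.219, the highest being without male replicate 3, and with library totals in place of TMM factors or a block from the title number (0.117 in both).

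Most members had higher fitted levels in males. Of the 41 tested members, 33 (80.5%) had a log2 fold change above 0, against 50.5% of all tested genes. When library totals replaced the TMM factors, 26 of 41 (63.4%) did so, against 38.9% of all tested genes. The median log2 fold change of the members was 0.23, beside 0.005 over all tested genes. With library totals, these medians were 0.10 and -0.10. All tested genes include 476 X-linked genes, with a median of -0.85, while no member is X-linked. Over the 12172 autosomal genes, the median was 0.020. The shares of all tested genes higher in females, here and above, include the X-linked genes. At an unadjusted p under 0.05, 10 members (24.4%) were higher in males, against 6.26% of all tested genes (13.2% in either direction). None was higher in females at that threshold, against 6.95% of all tested genes, and BUB1B had the smallest unadjusted p of those with higher fitted levels in females (0.145). That count was 2 with DESeq2 and both numbers of the library name, 1 with a block from the title number and 1 without male replicate 1. Without male replicate 5, 6 members (14.3%) were at p under 0.05 and higher in males, beside 7.81% of all tested genes. Without female replicate 5 there were 5 (11.9%, beside 4.19%), and without female replicate 6 there were 6 (15.0%, beside 3.95%). With library totals there were 3 (7.32%, beside 3.08%). The 10 members were CDC20, AURKA, CCNB1, CDK4, ORC1, CDK2, MCM5, CCNE1, PLK1 and MCM3. Of these, 9 did not pass the adjusted threshold.

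**Figure D1:**
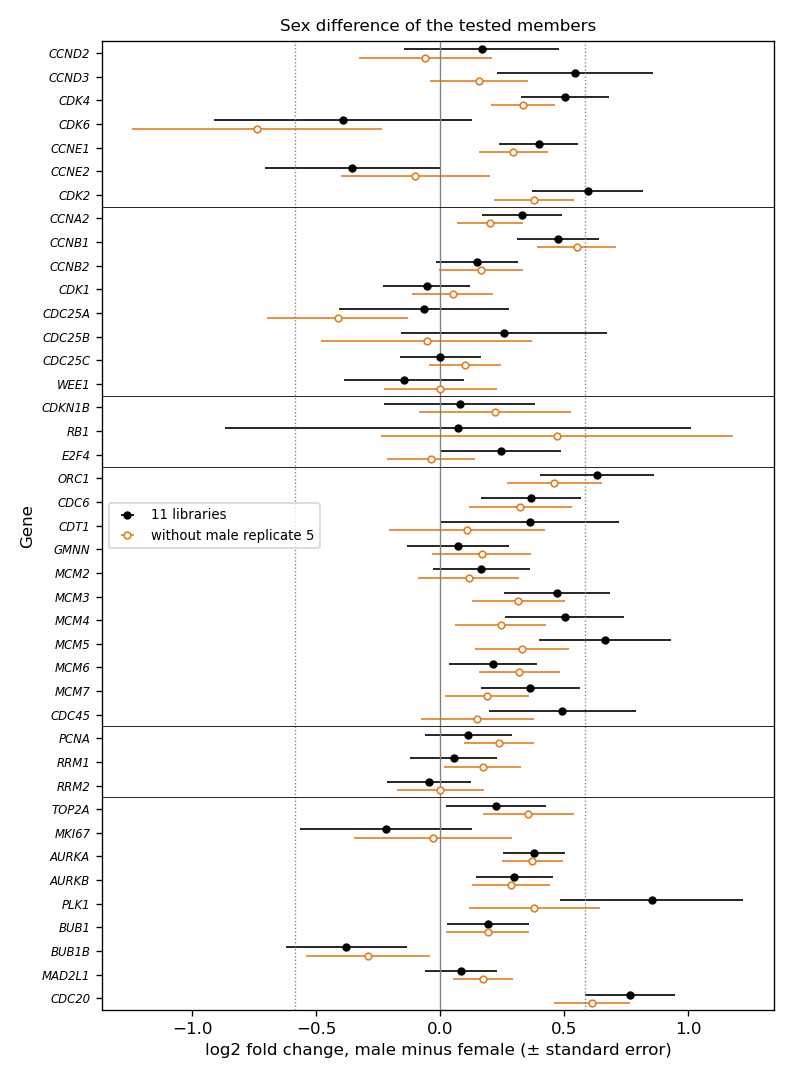
Fitted log2 fold change of males over females (x axis, ± standard error) for the 41 tested members, ordered by role, with all 11 libraries (filled) and without male replicate 5 (open). Dotted lines mark a fold change of 1.5. Points lie to the right of 0 for 33 members with all libraries, and PLK1 (0.85) and MCM5 (0.67) move furthest towards 0 among those over a log2 of 0.6 when male replicate 5 is left out.

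Counts of all members together made up 0.412% to 0.534% of the reads in female and 0.435% to 0.544% in male libraries, and these ranges overlapped. On the TMM-scaled CPM, their sum was 3934 to 4929 CPM in females and 4956 to 5406 CPM in males, without overlap. The mean was higher in males on both scales, and the lack of overlap rested on the scaling. The members' levels ranged over the libraries with a median coefficient of variation of 29.0%, from 11.9% for MAD2L1 to 80.8% for PLK1.

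**Figure D2:**
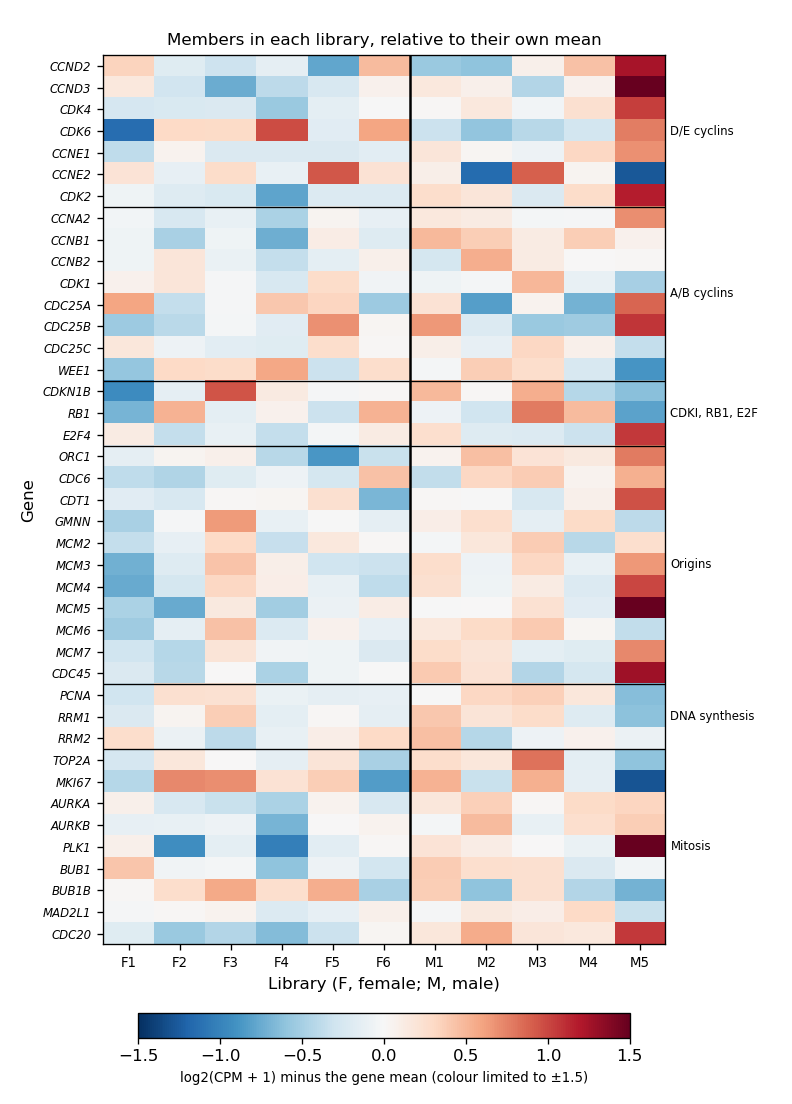
Level of the 41 tested members (rows, ordered by role) in 6 female and 5 male libraries (columns) as log2(CPM + 1) minus the gene's mean over the libraries. CDC20 is above its mean in all 5 male libraries, and the deepest colours of both signs are in male replicate 5.

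Among the D and E cyclins and their kinases, 5 of 7 tested members had higher fitted levels in males. The median log2 fold change of the group was 0.40 (0.29 with library totals), and without male replicate 5 it was 0.16, with 4 of 7 higher in males. CDK4, the partner of D cyclins, was lowest at 51.4 CPM in females, with a median of 65.3 and a highest value of 75.8 CPM. In male replicates 1 to 5 it was at 77.3, 85.5, 74.3, 89.9 and 158 CPM. Male replicate 3 was below the highest female library, the other 4 males were above every female, and male replicate 5 stood far above the rest. For CDK4, the log2 fold change was 0.51 ± 0.18 (SE), with an adjusted p of 0.237, and it was 0.33 without male replicate 5.

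CDK2, the partner of E and A cyclins, was at 15.8 to 26.5 CPM in females, with a median of 24.1 CPM. In male replicates 1 to 5 it was at 33.7, 31.8, 23.9, 34.1 and 64.3 CPM. All males but replicate 3 were above every female library. Its log2 fold change was 0.59 ± 0.22 (SE), with an adjusted p of 0.272, and 0.38 without male replicate 5. CCNE1 (cyclin E1) was at 59.2 to 80.7 CPM in females, with a median of 66.7 CPM. Male replicates 1 to 5 were at 87.7, 79.4, 73.4, 96.1 and 126 CPM, of which replicates 2 and 3 fell within the female range. CCNE1 had a log2 fold change of 0.40 ± 0.16 (SE), with an adjusted p of 0.310, and of 0.30 without male replicate 5.

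CCNE2 (cyclin E2) had a log2 fold change of -0.35 ± 0.35 (SE), or -0.10 without male replicate 5, and spread widely among males, from 27.95 to 129.7 CPM, against 63.3 to 132 CPM in females. The ratio of CCNE1 to CCNE2 counts within a library was 0.504 to 1.28 in females. In males it was 1.19, 2.60, 0.566, 1.36 and 4.50 in replicates 1 to 5. Replicates 2, 4 and 5 were above every female library, while replicate 3 was near the lowest females. This ratio is given as a description, without a test.

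CCND2 (cyclin D2), the D cyclin with the highest mean CPM, was at 50.3 to 120.7 CPM in females, with a median of 77.9 CPM. Males were at 58.9, 56.9, 91.3, 118 and 207 CPM, so that all but replicate 5 lay within the female range. Its log2 fold change was 0.17 ± 0.31 (SE) and turned to -0.06 without male replicate 5 and -0.09 without female replicate 5. CCND3 (cyclin D3) was at 6.96 to 13.9 CPM in females, with a median of 10.1 CPM. Males were at 13.9, 13.1, 8.87, 12.9 and 39.3 CPM, and again all but replicate 5 lay within the female range. CCND3 had a log2 fold change of 0.54 ± 0.32 (SE), with an adjusted p of 0.5, and 0.16 without male replicate 5. CDK6, the second partner of D cyclins, was at 0.684 to 6.31 CPM in females and 1.48 to 5.32 CPM in males. CCND1 (cyclin D1) had 0 to 19 counts per library and was not tested.

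**Figure D3:**
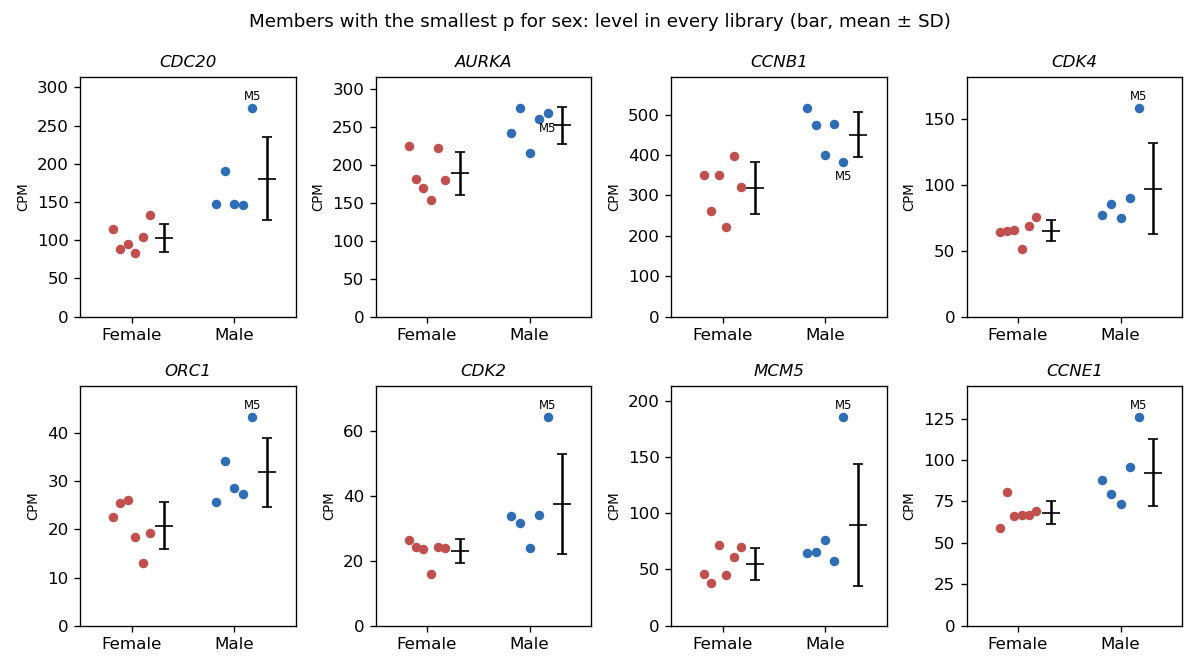
CPM (y axis, from 0) of the 8 members with the smallest unadjusted p for sex, in 6 female and 5 male libraries, one point per library, with the mean and SD as bars. M5 marks male replicate 5. Female and male points do not overlap for CDC20, and male replicate 5 is the highest point for CDC20, CDK4, ORC1, CDK2, MCM5 and CCNE1.

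Among the A and B cyclins, CDK1 and the enzymes that act on it, 5 of 8 members had higher fitted levels in males. Their median log2 fold change was 0.08 and was -0.04 with library totals, beside medians of 0.005 and -0.10 over all tested genes. CCNB1 (cyclin B1), which with CDK1 starts mitosis, was at 221 to 398 CPM in females, with a median of 336 CPM. In male replicates 1 to 5 it was at 515, 475, 401, 476 and 383 CPM. Replicate 5 was the lowest male and lay within the female range, while the other 4 males were above every female library. CCNB1 had a log2 fold change of 0.48 ± 0.17 (SE), with an adjusted p of 0.233, and 0.55 without male replicate 5.

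CDK1, the kinase that cyclin B1 activates, had a mean of 247 ± 30.8 CPM in females and 238 ± 62.1 CPM in males. Its log2 fold change was -0.05 ± 0.18 (SE) and turned to 0.05 without male replicate 5. The ratio of CCNB1 to CDK1 counts was 0.966 to 1.49 in females and 2.26, 2.03, 1.18, 2.16 and 2.26 in male replicates 1 to 5. All males but replicate 3 were above every female library, which is given as a description, without a test. A pseudogene is annotated over CDK1 (and another over RRM1), and the strand setting of the counting is not given in the sources used here, so these counts are less certain.

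**Figure D4:**
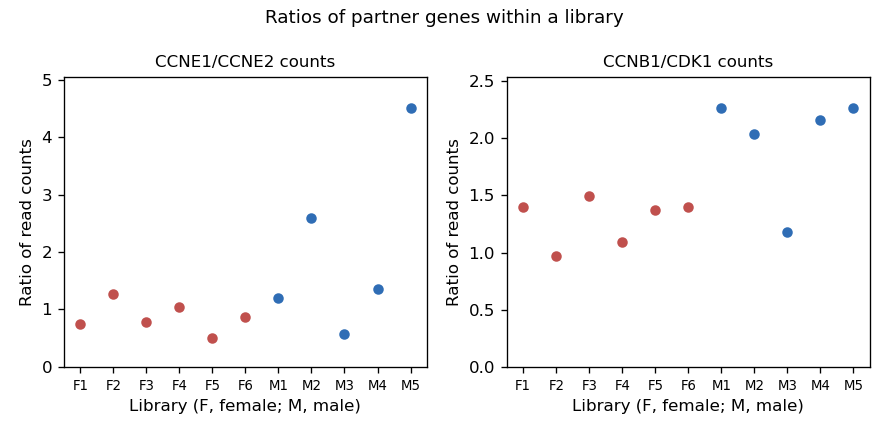
Ratio of read counts of CCNE1 to CCNE2 (left) and CCNB1 to CDK1 (right) within each of the 11 libraries (x axis; F, female, M, male). CCNB1 to CDK1 ratios lie between 0.966 and 1.49 in females and at 2.03 or more in all males except replicate 3 (1.18).

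CCNA2 (cyclin A2), which acts in DNA synthesis and early mitosis, had means of 92.2 ± 11.2 CPM in females and 119 ± 27.7 CPM in males. CCNB2 (cyclin B2) was at 113 ± 14.8 and 127 ± 27.6 CPM. CDC25 phosphatases remove the phosphate by which WEE1 holds CDK1 inactive. CDC25C was among the steadiest members, with a coefficient of variation of 14.1% and means of 89.7 CPM in females and 89.9 CPM in males. CDC25A was at 34.7 ± 10.6 and 33.1 ± 16.8 CPM and WEE1 at 40.2 ± 11.4 and 35.4 ± 11.2 CPM.

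CDC25B was the most variable of this group. Females were at 3.04 to 8.49 CPM, with a median of 4.52 CPM, and males at 8.26, 4.12, 3.02, 3.09 and 11.4 CPM. Replicates 1 and 5 were high among males and replicate 5 among females, and the ranges overlapped. Its log2 fold change was 0.26 ± 0.42 (SE) and was -0.05 without male replicate 5.

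The CDK inhibitors, RB1 and E2F factors were mostly low. CDKN1B (p27), which restrains CDK2, was at 5.93 to 24.7 CPM in females and 7.64 to 18.6 CPM in males. Of the tested members of the group, 3 of 3 had a log2 fold change above 0. With library totals 1 of 3 did so, beside 38.9% of all tested genes, and without male replicate 5, 2 of 3 did so. CDKN2C (p18), an inhibitor of CDK4 and CDK6, had 0 to 29 counts per library. E2F1, an activator of replication genes, had 5 to 17 counts, and both were too low to be tested. E2F4, an E2F factor that mainly represses, was at 34.5 to 48.8 CPM in females, with a median of 42.5 CPM. Males were at 53.5, 38.7, 38.4, 35.5 and 94.3 CPM, of which replicates 1 and 5 lay above every female library. E2F4 had a log2 fold change of 0.24 ± 0.24 (SE), and -0.04 without male replicate 5.

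RB1, which holds activating E2F factors in check, had at most 31 counts in any library. Females were at 0.0760 to 1.52 CPM, with a median of 0.701 CPM, and male replicates 1 to 4 were at 0.661, 0.422, 1.99 and 1.43 CPM. Male replicate 5 had 0 counts, which allows a level of up to 0.145 CPM (3 counts, counting error only). No sex difference of RB1 was detectable at this depth (log2 fold change 0.07 ± 0.94, SE, or 0.47 without male replicate 5).

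Of the origin licensing and firing genes, 11 of 11 had a higher fitted level in males. GMNN turned with library totals (-0.05, beside a median of -0.10 over all tested genes). The median log2 fold change of the 11 was 0.37, and it was 0.27 with library totals and 0.25 without male replicate 5. None of the 11 was called, and 3 were at an unadjusted p under 0.05 (ORC1, MCM5 and MCM3). Without male replicate 5, or with library totals, ORC1 alone was at that threshold. Summed over the 11 genes on the TMM-scaled CPM, females were at 777 to 1493 CPM and males at 1160 to 1274 CPM. Female replicate 3 (1493 CPM) was above every male. The other female libraries, at 777 to 1073 CPM, were below every male.

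ORC1, the subunit of the origin recognition complex that is renewed in each cycle, was at 13.1 to 26.2 CPM in females, with a median of 20.9 CPM. In male replicates 1 to 5 it was at 25.8, 34.2, 28.7, 27.5 and 43.3 CPM. All males but replicate 1 were above every female library. The log2 fold change of ORC1 was 0.63 ± 0.23 (SE), with an adjusted p of 0.260, and 0.46 without male replicate 5. MCM5, a subunit of the MCM2 to MCM7 helicase ring, was at 37.7 to 71.7 CPM in females, with a median of 53.5 CPM. Males were at 64.5, 65.1, 75.9, 57.3 and 186 CPM. Replicate 5 was 2.82 times the mean of the other males, of which 3 lay within the female range. For MCM5, the log2 fold change was 0.67 ± 0.27 (SE), with an adjusted p of 0.302, and 0.33 without male replicate 5.

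The 6 subunits of the MCM ring had log2 fold changes of 0.17 (MCM2), 0.47 (MCM3), 0.50 (MCM4), 0.67 (MCM5), 0.21 (MCM6) and 0.36 (MCM7), each with a standard error of 0.18 to 0.27. Without male replicate 5 they were 0.12, 0.32, 0.25, 0.33, 0.32 and 0.19 in the same order. CDC6, which loads the ring, was at 28.05 ± 7.15 CPM in females and 35.7 ± 8.27 CPM in males. CDC45, which joins the ring when origins fire, was at 14.5 ± 2.20 and 21.7 ± 11.8 CPM, and male replicate 5 alone was at 41.6 CPM.

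GMNN (geminin), which binds CDT1 and so blocks a second round of loading, was at 316 to 692 CPM in females, with a median of 426 CPM. Males were at 476, 531, 406, 545 and 337 CPM, all within the female range, and female replicate 3 was the highest library. The log2 fold change was 0.07 ± 0.21 (SE), or 0.17 without male replicate 5. CDT1, the loading factor itself, was at 2.20 to 5.09 CPM in females and 3.34 to 8.95 CPM in males. The ratio of CDT1 to GMNN counts was 0.00542 to 0.0115 in females and 0.00774 to 0.00885 in male replicates 1 to 4, and it was 0.0265 in male replicate 5. It thus overlapped between the sexes in all males except that library.

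The proteins of DNA synthesis differed little between the sexes relative to their spread. RRM2, the small subunit of ribonucleotide reductase, was at 371 to 602 CPM in females, with a median of 489 CPM. Males were at 666, 363, 460.4, 511 and 459.9 CPM, on both sides of the females. RRM1, the large subunit of the same enzyme, was at 119 to 179 CPM in females, with a median of 133 CPM, and at 184, 159, 169, 121 and 90.3 CPM in male replicates 1 to 5. Male replicate 5 was the lowest and male replicate 1 the highest of the 11 libraries. PCNA, the sliding clamp of DNA polymerases, was at 397 ± 61.6 CPM in females and 424 ± 104 CPM in males. The log2 fold changes were -0.04 ± 0.17 (RRM2), 0.05 ± 0.17 (RRM1) and 0.11 ± 0.18 (PCNA, all SE). With library totals, 0 of 3 were above 0, beside 38.9% of all tested genes. Without male replicate 5 all 3 were above 0 (0.0016, 0.17 and 0.24 in the same order).

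Among the mitosis genes, 7 of 9 had higher fitted levels in males (6 with library totals). The median of the group was 0.23 on the log2 scale, and CDC20 was the called member. AURKA (aurora kinase A), which acts at the spindle poles, was at 154 to 225 CPM in females, with a median of 181 CPM. In male replicates 1 to 5 it was at 242, 275, 216, 261 and 269 CPM. All males but replicate 3 were above every female library, and replicate 5 did not stand apart. The log2 fold change of AURKA was 0.38 ± 0.13 (SE), with an adjusted p of 0.215, and it was 0.37 without male replicate 5. AURKB (aurora kinase B), which corrects attachments of chromosomes to the spindle, was at 97.9 ± 16.4 CPM and 125 ± 21.5 CPM.

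PLK1, a kinase of mitotic entry and exit, had the largest coefficient of variation and the largest log2 fold change (0.85 ± 0.37, SE) of the tested members. Females were at 7.54 to 17.3 CPM, with a median of 14.6 CPM, and males at 19.0, 17.8, 16.5, 15.2 and 65.1 CPM. Replicates 3 and 4 lay within the female range, and replicate 5 was 3.80 times the mean of the other males. The adjusted p was 0.350, and without male replicate 5 the log2 fold change was 0.38.

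TOP2A (topoisomerase II alpha), which disentangles sister DNA, was at 263 to 421 CPM in females, with a median of 353 CPM. Males were at 441, 414, 649, 331 and 241 CPM. Males held both the highest library, replicate 3, and the lowest, replicate 5, and the log2 fold change was 0.23 ± 0.20 (SE), or 0.36 without male replicate 5. MKI67, the Ki-67 proliferation marker, was at 17.1 ± 6.92 CPM in females and 14.5 ± 6.88 CPM in males.

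Of the spindle checkpoint genes, BUB1 was at 84.3 ± 20.05 and 97.4 ± 16.3 CPM and BUB1B at 45.8 ± 11.4 and 34.7 ± 12.6 CPM. MAD2L1, whose product holds CDC20 inactive until all chromosomes are attached, was at 144 ± 10.9 and 153 ± 23.9 CPM. Its log2 fold change was 0.08 ± 0.15 (SE), or 0.17 without male replicate 5. The annotated MAD2L1 gene spans only 790 bases, the shortest of the members, so its counts are uncertain as those of the full gene.

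Male replicate 5 held the highest level of more members than any other library did. It was the highest of the 11 libraries for 19 of 41 tested members (46.3%), against 24.9% of all tested genes, and the lowest for 11 (26.8%), the same share as over all tested genes (26.8%). The members it was highest for included 5 of 7 D and E cyclins and kinases and 8 of 11 origin genes. It was highest for 2 of 9 mitosis genes (PLK1 and CDC20) and lowest for 4 of them (TOP2A, MKI67, BUB1B and MAD2L1). Against the mean of the other 4 males, CCND3 was at 3.22 times, CDK6 at 2.91 and CCND2 at 2.54 times, while MKI67 was at 0.318, CCNE2 at 0.367 and PCNA at 0.551 times. This is a description of 1 library and carries no test.

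**Figure D5:**
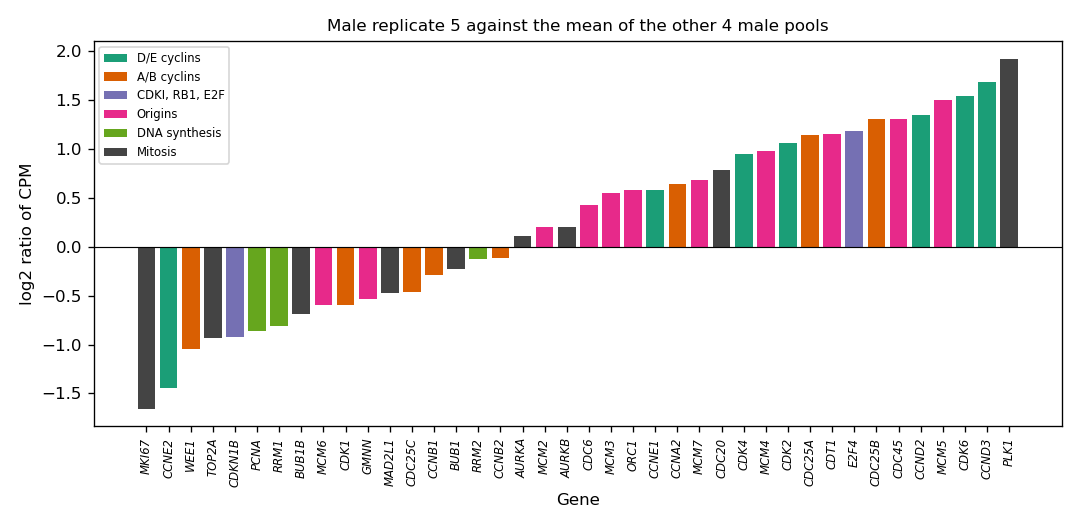
CPM of male replicate 5 over the mean of the other 4 male libraries, as log2 (y axis), for 40 tested members, sorted and coloured by role. RB1, with 0 counts in male replicate 5, is not drawn. Ratios run from 0.318 (MKI67) to 3.80 (PLK1) on the linear scale, with origin genes and D and E cyclins and kinases mostly on the high side.

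Of the 10 trophectoderm markers, 4 were highest in male replicate 5 (CDX2, KRT8, KRT18 and DAB2). The 10 trophectoderm markers summed to 36075 CPM in male replicate 5, against 9181 to 20221 CPM in the other males and 7860 to 23116 CPM in females. KRT8, a keratin of the trophectoderm, was at 20103 CPM there and at 2280 to 7302 CPM in the other 10 libraries. Without KRT8, the trophectoderm sum was 15971 CPM in male replicate 5, 5600.5 to 13697 CPM in the other males and 5580.3 to 15814 CPM in females, so that male replicate 5 lay close to the highest female library. The 6 ICM markers in the table summed to 559 to 978 CPM in females and 790.5 to 1074 CPM in males. Hypoblast markers (7) summed to 228 to 620 CPM and 208 to 466.1 CPM. Cumulus markers (7) summed to 7.18 to 32.6 CPM and 5.37 to 29.4 CPM, and 5 of the 7 had 0 counts in at least 1 library. No marker of these 4 lists was called by sex. Fitted levels were higher in males for 6 of 6 tested ICM, 5 of 10 trophectoderm, 3 of 5 hypoblast and 1 of 3 cumulus markers. Over all tested genes, that share was 50.5%. At an unadjusted p under 0.05 in the edgeR test, PTGS2 (log2 fold change -1.20) and CYP19A1 (-1.67, with 2 to 42 counts) were higher in females. The part of the cell type makeup in the members' values was not tested.

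Library names carry a number from 1 to 3 beside the sex, which entered the fit as a block. Within numbers 1, 2 and 3, the mean log2 level of CDC20 was higher in males by 0.73, 0.73 and 0.76, and number 2 held 1 male library. The number itself was tested in the same fit, and 0 of 41 members passed an adjusted p of 0.1, against 0.00781% of all tested genes. By edgeR, 0 members were at an unadjusted p under 0.05 for the number, against 6.93% of all tested genes, with a smallest p of 0.0746, and DESeq2 called 0 as well.

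A wider list of 122 genes of replication, mitosis, CDK regulation and checkpoints was examined in the same fit. Of these, 120 were tested, and 71 had higher fitted levels in males and 49 in females. The median log2 fold change of the list was 0.06 (-0.05 with library totals and 0.12 without male replicate 5). Over all tested genes, the median was 0.005 (-0.10 with library totals and -0.02 without male replicate 5). The share with higher levels in males was 59.2%, against 50.5% of all tested genes. At an unadjusted p under 0.05, 10 were higher in males (8.33%, against 6.26% of all tested genes) and 3 in females (against 6.95%). The 1 called gene (0.833%, against 1.91% of all tested genes) was SMC1A, a cohesin subunit encoded on the X chromosome, at 38.8 ± 10.97 CPM in females and 16.3 ± 6.603 CPM in males, although the ranges of 22.4 to 55.2 and 10.2 to 24.3 CPM overlapped. Its log2 fold change was -1.19 ± 0.24 (SE), with an adjusted p of 0.0407, and the call was lost on leaving out replicate 2 or 5 of the females, or 2 or 3 of the males (adjusted p 0.103 to 0.151). STAG2, another X-linked cohesin subunit, had a log2 fold change of -0.93 ± 0.25 (SE) and an adjusted p of 0.117, and it was called without male replicate 4 or 5. The third gene with p under 0.05 and higher in females was POLA1, of DNA polymerase alpha, named here after its values were seen, and it is X-linked too. The median over the 476 tested X-linked genes was -0.85.

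The autosomal genes of the wider list with the smallest p were all higher in males and not called. SPC24, of the kinetochore, was at 72.2 to 81.6 CPM in females and 91.8 to 128 CPM in males, without overlap, with a log2 fold change of 0.46 ± 0.14 (SE) and an adjusted p of 0.158. UBE2C, the ubiquitin-conjugating partner of the APC/C that CDC20 activates, was at 352 ± 49.9 and 488 ± 64.7 CPM, with a log2 fold change of 0.46 ± 0.14 (SE) and an adjusted p of 0.163. RFC2, of the loader of PCNA, had a log2 fold change of 0.58 ± 0.21 (SE). BUB3, of the spindle checkpoint, had one of 0.36 ± 0.13 (SE).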

How the data were processed

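RNA-seq libraries of 6 female and 5 male pools of expanded blastocysts were analysed, and an Iso-seq sample of earlier embryos was not used. The authors used fastp 0.20.0 for trimming, STAR 2.7.10b for alignment (3 mismatches allowed) and featureCounts for counting on genes, and deposited raw counts (whole numbers). Strand and the treatment of reads shared by overlapping genes are not given in the sources used here, and 14 members overlap another annotated gene, 7 of them a protein-coding one. Sex came from the sample labels. The 44 members and all other lists were chosen with earlier results of these data known.

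The tests used edgeR 4.0.16 under R 4.3.3 (filterByExpr by sex, TMM factors, quasi-likelihood test, Benjamini-Hochberg adjustment over all tested genes). The model held sex and, in place of the collection week that the study used and the labels do not give, the library number as a block; whether it is that week is not known. Within-number differences used log2(CPM + 0.5). The steps were tested on simulated counts. Positions came from the RefSeq annotation of ARS-UCD2.0, in which all 44 symbols matched. Exon lengths were not at hand, so levels were not compared between genes per length.

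Values in every male library, with the female range and median, are given for called members and the 8 members with the smallest p. They are also given for the member with the highest mean CPM and that with the largest coefficient of variation in each of 6 roles. From the wider list, called genes and the 6 with the smallest p are named. Alternatives were no block or a block from the title number, and DESeq2 1.42.0 with the library number or with both numbers of the library name. The others were RLE factors, library totals, a looser and a stricter filter, an FDR of 0.05 and leaving out each library.

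The inner cell mass list was NANOG, SPIC, POU5F1, SOX2, KLF17, LIN28A and TDGF1, the last of which was not matched in the count table. Trophectoderm markers were LGALS3, KRT18, KRT8, PTGS2, DAB2, GATA3, GATA2, CDX2, TFAP2C and TFAP2A. Hypoblast markers were COL4A1, FOXA2, HNF4A, PDGFRA, SOX17, GATA6 and GATA4, and cumulus markers were FOXL2, AMH, FSHR, CYP19A1, INHA, TNFAIP6 and HAS2.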

Additional observations from a re-analysis of the deposited data

Results flagged for a closer look

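In 8 of the 48 groups of libraries examined, each a named gene in 1 sex, a single library stood far from the others by Dixon's criterion at the 95% level, and chance gives about 1 in 20 for genes not chosen by their spread. MCM5, PLK1, CCND3 and CDC25B were named for the largest coefficient of variation in their roles, so that rate does not apply to them. The groups also share the same 11 libraries and are not independent, so the rate cannot be used to judge the 8 together. Male replicate 5 was the library that stood apart in 5 of the 8. It was at 157.7 CPM for CDK4, where the next male was at 89.9 CPM, and at 64.3 CPM for CDK2, where the next was at 34.1 CPM. MCM5 was at 185.5 CPM in it and at most 75.9 CPM in the other males. CCND3 was at 39.3 CPM in it, against a next value of 13.9 CPM, and PLK1 at 65.1 CPM, against 19.0 CPM.

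The other 3 were female libraries. CDK2 was at 15.8 CPM in female replicate 4, below a next value of 23.7 CPM. GMNN was at 692 CPM in female replicate 3, above a next value of 444 CPM. CDC25B was at 8.49 CPM in female replicate 5, above a next value of 5.03 CPM.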

How the results depend on the processing

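With 11 libraries and 1 called member, single calls were close to the threshold. The number of called members was 1 of 41 as reported, 0 at an FDR of 0.05 and 0 with library totals. It was 3 of 44 with every gene that had at least 1 count (CDC20, MCM5 and PLK1). It ranged from 0 to 1 when each library was left out. CDC20 had an adjusted p of 0.117 with library totals and of 0.0110 with DESeq2. In the wider list the count was 1, and 2 in both DESeq2 fits, with library totals and with the looser filter (SMC1A and STAG2). It was 0 to 2 when a library was left out. Over all genes the count was 245 of 12802, with 125 at an FDR of 0.05. With DESeq2 it was 655 under the library number and 837 under both numbers, and 743 with the looser filter, each of 23857 tested genes. On leaving out a library, it was 95 of 12966 (without male replicate 3) to 364 of 12954 (without male replicate 5). Of the 290 genes called with library totals, 25 were higher in males (8.62%), against 53 of 245 (21.6%). Members with p under 0.05 and higher in males numbered 10, 3 with library totals and 5 to 14 when a library was left out. The shares of all tested genes were 6.26%, 3.08% and 3.95% to 7.81% in the same order. The members' median log2 fold change was 0.23, 0.10 with library totals and 0.18 to 0.27 when a library was left out. Over all tested genes, the median was 0.005, and -0.10 with library totals. The library number called 0 members under every alternative run. The cause of these differences was not tested.

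Whether the numbers pair the samples was not tested. Deviations from the sex means of female and male libraries with the same library number correlated at 0.0277, 0.41 and 0.244. Between different library numbers, the correlations ran from -0.372 to 0.182. Libraries with the same title number correlated at -0.129, 0.272, 0.378, 0.00447 and -0.0808. With no replicate block, 1 member, 1 gene of the wider list and 326 of all genes were called. With the title number as a replicate block, 0 members, 2 genes of the wider list and 132 of all genes were called, and CDC20 had an adjusted p of 0.117.

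Among named genes, log2 fold changes near 0 changed sign. With library totals, where the median over all tested genes was -0.10, GMNN was at -0.048, RB1 at -0.067 and RRM1 at -0.060. With the title number as a replicate block, RRM2 was at 0.032. On leaving out each library, the values ran from -0.036 to 0.36 for E2F4, -0.086 to 0.35 for CCND2, -0.18 to 0.061 for RRM2, -0.0062 to 0.39 for TOP2A, -0.051 to 0.23 for GMNN, -0.054 to 0.51 for CDC25B, -0.49 to 0.47 for RB1 (8 of 11 fits, since it had too few counts in the others) and -0.032 to 0.17 for RRM1. None of these 8 was called in any setting. Of the single-gene values, 406 kept direction and call, 15 lost a call, 9 gained one and 22 changed sign. The comparison of levels per coding length was not run, since no lengths were at hand. Depth limited RB1, CCND1, CDKN2C and E2F1, whose counts were at most 31 in any library.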
